A study of Mus musculus with 12 samples.

Results

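The comparison of pressure-overloaded left ventricles that lack Alox5 with pressure-overloaded wild-type ones is described here across all genes that could be measured. Under TAC, transverse aortic constriction, the aorta of a mouse is narrowed by surgery so that the ventricle pumps against a raised load. The 3 Alox5ko_TAC libraries (Alox5 knockout, TAC) were set against the 3 WT_TAC libraries (wild type, TAC). Both groups carry the TAC operation, and the Alox5 genotype is the difference between them that the labels give. The other libraries are 3 WT_NS (wild type) and 3 Alox5ko_NS (Alox5 knockout), whose treatment label NS is not spelled out and is used here only as the name of the groups without TAC. Strain, age, sex, the cells in which Alox5 was removed and the time after surgery are not given in the labels used here, although the design text speaks of a cardiac deficiency. Genes were kept with 10 or more counts in at least 3 of these 6 TAC libraries, which left 15117 of 49492 rows, 12536 of them protein-coding. The minimum was reached in all 6 libraries by 13961 of these (92.4%), through Alox5ko_TAC alone by 15 and through WT_TAC alone by 24.

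Alox5 codes for 5-lipoxygenase, which turns arachidonic acid released from membranes into leukotriene A4 with the help of the docking protein encoded by Alox5ap. Lta4h and Ltc4s then make leukotriene B4 and the cysteinyl leukotrienes, lipid messengers best known from neutrophils, macrophages and mast cells. In a ventricle under raised load, myocytes enlarge and switch on genes of the fetal heart, fibroblasts lay down matrix, and oxidation of fatty acids falls. The series title names Runx2, a transcription factor of bone formation, beside 5-lipoxygenase and remodeling of the ventricle.

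The 6 TAC libraries held 20889431 to 23820523 counts, of which 14.56% to 17.29% were mitochondrial. Cardiomyocyte markers summed to 188800, 185400 and 187200 CPM (counts scaled to library size) across WT_TAC and to 194600, 187800 and 185200 CPM across Alox5ko_TAC. Markers of atrial myocytes varied between libraries of both groups, and their part in the results was not tested. The 8 markers summed to 1378, 798.7 and 672 CPM in WT_TAC and 867.4, 309.8 and 1350 CPM in Alox5ko_TAC. Most of each sum was Nppa, which is also among the genes of the fetal and hypertrophic program described below. Nppa gave 26489, 17598 and 13261 counts in WT_TAC and 19809, 6089 and 25904 counts in Alox5ko_TAC. Myl7, the atrial light chain, gave 168, 18 and 38 counts in WT_TAC and 15, 0 and 276 counts in Alox5ko_TAC, and Bmp10 was at 0 in all 6. WT_TAC 1 stood apart in matrix and activated fibroblast genes. Alox5ko_TAC 3 stood apart in transcripts typical of liver, a list of 32 genes chosen after their values were seen. Their sum was 205 CPM there, 46.8 and 79.8 CPM in Alox5ko_TAC 1 and 2, and 32.9 to 53.3 CPM in WT_TAC, and 30 of the 32 were highest in that library. The source of these transcripts was not tested.

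Of the 15117 genes, 16 differed between Alox5ko_TAC and WT_TAC at an adjusted p under 0.05 (0.106%; edgeR's quasi-likelihood test with Benjamini-Hochberg adjustment), and 12 of the 16 differed by 2-fold or more. In Alox5ko_TAC 11 genes rose (0.0728%) and 5 fell (0.0331%). The genes that fell were Alox5, 3 of its neighbours on chromosome 6 (Wnt5b, Ret and Itpr1) and the homeobox gene Hlx. Of the genes that rose, 8 were histone genes of the Hist2 cluster on chromosome 3 or gene models that overlap them, and the other 3 were Thrsp, Ide and Shisa6. Among these 8, Hist2h2ab, Hist2h2ac, Gm15444 and Gm44492 reached the count minimum only through Alox5ko_TAC. These 4 therefore had to differ, and they are included in the counts given here. Most of the transcriptome lay close together. The median log2 fold change over all 15117 genes was -0.01, the 5th and 95th percentiles were -0.45 and 0.37, and 154 genes (1.02%) reached 2-fold in either direction. The count of 16 was 29 without WT_TAC 1, and it was 10 without WT_TAC 3 and 10 without Alox5ko_TAC 3.

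Alox5 (chromosome 6, 116410077 to 116461178, GRCm38, minus strand) was measured first, since it checks the genotype labels. Its level was 13.4, 9.55 and 12.2 CPM in the WT_TAC libraries and 1.36, 1.14 and 1.1 CPM in the Alox5ko_TAC libraries. The groups lay far apart, and each knockout library kept a low level. Alox5 fell by 3.28 on the log2 scale (SE 0.19, adjusted p = 6.97e-09). The count covers the whole gene, so the remaining level does not tell which exons were read.

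Of 38 genes of leukotriene and arachidonate metabolism, 27 were tested, and Alox5 was called alone. The median log2 fold change of the 27 was -0.00243, and 13 were positive. Alox5ap, whose product hands arachidonic acid to 5-lipoxygenase, was at 3.61, 3.12 and 2.06 CPM in WT_TAC and 4.20, 3.60 and 3.77 CPM in Alox5ko_TAC. These ranges overlapped, and its value of 0.39 did not pass (adjusted p = 0.606). Ptgs2, the inducible cyclooxygenase, was at 0.469, 0.728 and 0.657 CPM in WT_TAC and 0.212, 0.274 and 0.334 CPM in Alox5ko_TAC (log2 fold change -1.18, adjusted p = 0.376). Hpgds, the synthase of prostaglandin D2 in blood-derived cells, had a value of -0.64 (adjusted p = 0.43). Ltc4s gave 12, 15 and 12 counts in WT_TAC and 11, 5 and 7 counts in Alox5ko_TAC, and its value of -0.76 did not pass (adjusted p = 0.612). Several cell types that use the pathway were hardly sampled: of the markers of neutrophils 2 of 10 were tested, and of those of mast cells 2 of 8, with Ly6g, Ms4a2 and Fcer1a at 0.

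Runx2 itself was under the count minimum. It gave 12, 6 and 6 counts in WT_TAC and 3, 8 and 3 counts in Alox5ko_TAC, and 2 to 12 counts in the libraries without TAC. It was therefore not tested. Of 15 genes of the Runx family, its partner and textbook Runx2 targets, 6 were tested and none was called (3 at an unadjusted p under 0.05, where 8.54% of all genes were, and 0 by DESeq2). Tnfrsf11b, which codes for osteoprotegerin, had a value of -1.09 (adjusted p = 0.461). Alpl, the bone and liver alkaline phosphatase, had 0.40 and Runx3 0.88, with adjusted p = 0.41 and 0.532.

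The histone genes are shown with their sequences because their near-identity decides how their counts can be read. Histone H2A is one of the core proteins around which DNA is wound. Genes of replication-dependent histones sit in clusters, carry no introns and code for almost the same protein. Most of their messages end in a stem-loop without a poly(A) tail, and these libraries were made from polyadenylated RNA. The Hist2 cluster on chromosome 3 holds Hist2h2ab (96219865 to 96220308, plus strand), Hist2h2ac (96220361 to 96220880, minus strand), Hist2h2aa2 (96239749 to 96240276, minus strand) and Hist2h2aa1 (96245497 to 96246082, plus strand), all in GRCm38. The same 141-base stretch of the coding sequence is printed for each, 5′ to 3′ on the gene's own strand, with capitals for bases that differ from Hist2h2aa2.
Hist2h2aa2: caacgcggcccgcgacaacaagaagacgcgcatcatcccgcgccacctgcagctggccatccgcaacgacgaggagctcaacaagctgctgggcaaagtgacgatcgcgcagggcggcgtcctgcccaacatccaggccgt
Hist2h2aa1: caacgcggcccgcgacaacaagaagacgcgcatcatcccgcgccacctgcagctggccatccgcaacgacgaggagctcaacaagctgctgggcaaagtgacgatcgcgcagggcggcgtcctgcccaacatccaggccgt
Hist2h2ac: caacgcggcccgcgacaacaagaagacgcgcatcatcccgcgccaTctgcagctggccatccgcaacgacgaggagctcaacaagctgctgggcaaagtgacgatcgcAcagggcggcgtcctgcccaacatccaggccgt
Hist2h2ab: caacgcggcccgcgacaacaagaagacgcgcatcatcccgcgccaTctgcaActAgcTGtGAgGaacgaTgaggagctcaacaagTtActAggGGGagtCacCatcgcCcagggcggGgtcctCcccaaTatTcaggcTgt
Hist2h2aa1 and Hist2h2aa2 share every base here and over their whole coding sequence of 390 bases. Hist2h2ac differs from them at 2 of the 141 bases and Hist2h2ab at 23. Over the 300 coding bases compared, Hist2h2ac matched Hist2h2aa2 at 97.7% and Hist2h2ab matched it at 91.7%, with shared runs of up to 113 and 98 bases.

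In Alox5ko_TAC the 3 libraries gave 56, 47 and 56 counts for Hist2h2ab, where each WT_TAC library gave 1. For Hist2h2ac the counts were 31, 28 and 27, where WT_TAC gave 0, 1 and 0. For Hist2h2aa1 they were 65, 67 and 76, where WT_TAC gave 9, 14 and 11. The groups did not overlap for any of these genes, and the libraries within each group gave nearly the same counts. As ratios of summed counts, with exact 95% intervals that cover counting error only, Hist2h2ab was 52.1-fold higher (17.5 to 255) and Hist2h2ac 84.6-fold higher (14.8 to 3380). Hist2h2aa1 rose by 2.60 on the log2 scale (SE 0.29, adjusted p = 0.000117). Hist2h2ab and Hist2h2ac had an adjusted p = 4.71e-06 and 0.00104, but both reached the count minimum only through Alox5ko_TAC and so had to differ. Nothing is read from these p-values, from the ratios or from the lack of overlap in both genes. Their fitted fold changes depend on the prior count and are not given.

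The copy with the identical coding sequence, Hist2h2aa2, was not called. It gave 1159, 1422 and 1102 counts in WT_TAC and 1458, 1461 and 1117 counts in Alox5ko_TAC, a value of 0.12 that did not pass. Per length, the deposited RPKM of Hist2h2aa2 was 97.5 to 116 in WT_TAC and 99.9 to 128 in Alox5ko_TAC. That of Hist2h2aa1 was 0.735 to 1.03 and 4.66 to 6.12, of Hist2h2ab 0.0971 to 0.108 and 4.90 to 5.95, and of Hist2h2ac 0 to 0.0829 and 2.45 to 2.50. The 4 genes together summed to 56.0, 62.0 and 52.1 CPM in WT_TAC and 67.6, 74.3 and 60.2 CPM in Alox5ko_TAC, so the sums overlapped. Hist2h2aa2 held 98.9% to 99.1% of that sum in WT_TAC and 87.5% to 91.1% in Alox5ko_TAC. How reads that fit more than 1 copy were assigned is not given in the sources used here, so the counts of these genes are uncertain.

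The other 5 called rows at this locus are gene models that overlap these genes, and their counts repeat those above. Gm44492, a microRNA model of 141 bases, is the stretch printed for Hist2h2ac read on the opposite strand, and it gave 30, 28 and 27 counts in Alox5ko_TAC. Gm15444, an antisense model that overlaps Hist2h2ab, gave 52, 46 and 56, and AC125099.1, opposite Hist2h2aa1, gave 62, 64 and 75. Genes on opposite strands thus received nearly equal counts, and the strand setting is not given, so the strand of these reads cannot be told. Gm20633 and Gm20634, which span Hist2h2aa1, rose by 1.63 and 1.34 (adjusted p = 0.00264 and 0.0286). Without the 7 gene models that overlap Hist2 genes, an alternative chosen after the data were seen, 9 genes were called. Gm15444 and Gm44492 also reached the count minimum only through Alox5ko_TAC.

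**Figure D1:**
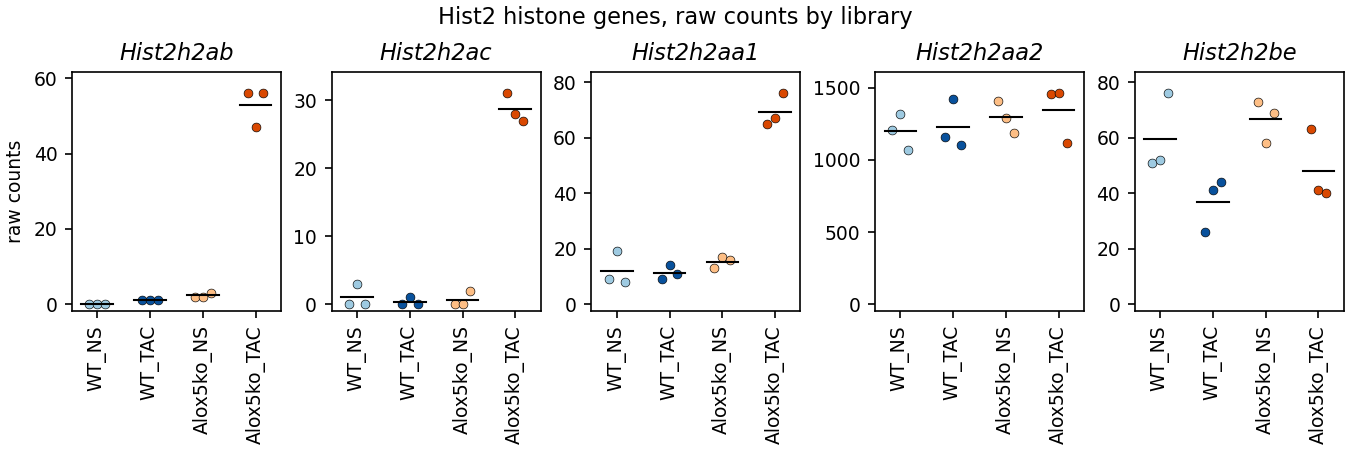
Raw counts of 5 Hist2 histone genes in each of the 12 libraries (points) with the group mean (bar), 1 panel per gene with its own axis from 0. Hist2h2ab, Hist2h2ac and Hist2h2aa1 are high in the 3 Alox5ko_TAC libraries alone, whereas Hist2h2aa2, the copy with the coding sequence of Hist2h2aa1, lies between 1069 and 1461 counts throughout.

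Of 74 histone genes 23 were tested, and the median log2 fold change was 0.11 with 13 positive. Hist2h2ab, Hist2h2ac and Hist2h2aa1 were the 3 called, where 0.106% of all genes were. Hist2h2ab and Hist2h2ac were tested only through their counts in Alox5ko_TAC, so nothing is read from this number of calls. Hist2h2be, a histone H2B gene of the same cluster, gave 26, 41 and 44 counts in WT_TAC and 63, 41 and 40 counts in Alox5ko_TAC. The variant gene H2afv had a value of 0.19 (adjusted p = 0.573). In the libraries without TAC the counts of Hist2h2ab were 0, 0 and 0 in WT_NS and 2, 2 and 3 in Alox5ko_NS, and those of Hist2h2aa1 were 9, 19 and 8 and 13, 17 and 16. The interaction of genotype and TAC had a value of 2.41 for Hist2h2aa1 (SE 0.47) and did not pass over all genes (adjusted p = 0.511).

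Hist2h2ab and Hist2h2ac had to differ by the count minimum, so nothing is read from a joint rise of the 3 called histone genes. The promoters of these 3 genes, 250 bases up to the annotated start, are printed for their letters alone. They come from RefSeq (GRCm38.p6, where the genes are named H2ac21, H2ac20 and H2ac18), 5′ to 3′ on the gene's strand. Capitals mark the TATA box letters TATAAA and the CCAAT box letters CCAAT, searched on both strands.
Hist2h2ab, chr3:96219635-96219884, plus strand: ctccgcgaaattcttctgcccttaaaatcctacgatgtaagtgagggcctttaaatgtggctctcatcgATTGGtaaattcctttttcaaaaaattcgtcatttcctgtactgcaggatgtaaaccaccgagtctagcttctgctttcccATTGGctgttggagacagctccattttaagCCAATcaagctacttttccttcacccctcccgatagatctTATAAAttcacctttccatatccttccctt
Hist2h2ac, chr3:96220881-96221130, minus strand: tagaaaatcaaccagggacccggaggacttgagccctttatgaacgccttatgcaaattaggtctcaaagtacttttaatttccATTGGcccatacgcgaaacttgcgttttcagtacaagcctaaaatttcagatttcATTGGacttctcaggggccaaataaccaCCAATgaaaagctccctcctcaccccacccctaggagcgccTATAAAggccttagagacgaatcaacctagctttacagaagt
Hist2h2aa1, chr3:96245247-96245496, plus strand: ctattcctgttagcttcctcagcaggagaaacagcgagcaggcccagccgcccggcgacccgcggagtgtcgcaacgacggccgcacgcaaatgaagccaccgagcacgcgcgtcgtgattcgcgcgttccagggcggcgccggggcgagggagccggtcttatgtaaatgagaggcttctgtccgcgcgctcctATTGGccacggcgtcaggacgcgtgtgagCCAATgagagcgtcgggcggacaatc
Hist2h2ab and Hist2h2ac each hold 1 TATAAA and 3 CCAAT, and Hist2h2aa1 holds 0 and 2. Among 32851 promoter windows of this length 12.4% hold TATAAA and 33.8% hold CCAAT. These matches describe the letters only.

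Chromosome 6 held 4 of the 16 called genes. Wnt5b, a secreted ligand of Wnt signalling, starts 2.971 Mb beyond Alox5 (119432531 to 119544347). Its level was 5.11, 4.88 and 3.38 CPM in WT_TAC and 2.12, 1.78 and 1.43 CPM in Alox5ko_TAC, with no overlap. Wnt5b fell by 1.32 (SE 0.20, adjusted p = 0.00502). Ret, the receptor tyrosine kinase for ligands of the GDNF family, lies 1.691 Mb from Alox5 (118151745 to 118197718). It was at 2.67, 2.23 and 3.47 CPM in WT_TAC and at 1.19, 1.19 and 1.05 CPM in Alox5ko_TAC, and fell by 1.28 (SE 0.22, adjusted p = 0.0189). Itpr1, a receptor for inositol trisphosphate that releases calcium from internal stores, lies at -7.859 Mb, measured from its end to the near end of Alox5 on the other side (108213096 to 108551109). It was at 45.9, 45.6 and 47.9 CPM in WT_TAC and 32.2, 33.9 and 31.5 CPM in Alox5ko_TAC, a tight fall of 0.51 (SE 0.10, adjusted p = 0.0477). Itpr1 lost its call without any 1 of the 6 libraries, and so did Hlx.

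Within 10 Mb of Alox5, 32 of 168 other tested genes (19%) had an unadjusted p under 0.05, where the share over all genes was 8.54%. On chromosome 6 beyond 10 Mb it was 58 of 607 (9.56%), and off chromosome 6 it was 1200 of 14341 (8.37%). The libraries without TAC gave 27 of the same 168 (16.1%). In 13 of the 168 the p was under 0.05 in both genotype comparisons with the same sign, against 122 of 14341 (0.851%) off chromosome 6. Apobec1, an RNA-editing enzyme, was among them at -1.03 with TAC and -0.65 without (adjusted p = 0.105 with TAC). Atp6v1e1, a subunit of the proton pump of lysosomes, had 0.31 and 0.27, and Fam21, of the WASH complex on endosomes, had 0.37 and 0.32. Atg7, an autophagy enzyme, had -0.45 and -0.41. Syn2 and Timp4, an inhibitor of matrix metalloproteinases that lies inside the span of Syn2, had 1.03 and 1.04 with TAC. Gm44040 overlaps Itpr1 and had -0.96, so its counts may not be separate from those of Itpr1. Strain is not given, so the Alox5 deletion and any other sequence carried along with it on chromosome 6 cannot be told apart.

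**Figure D2:**
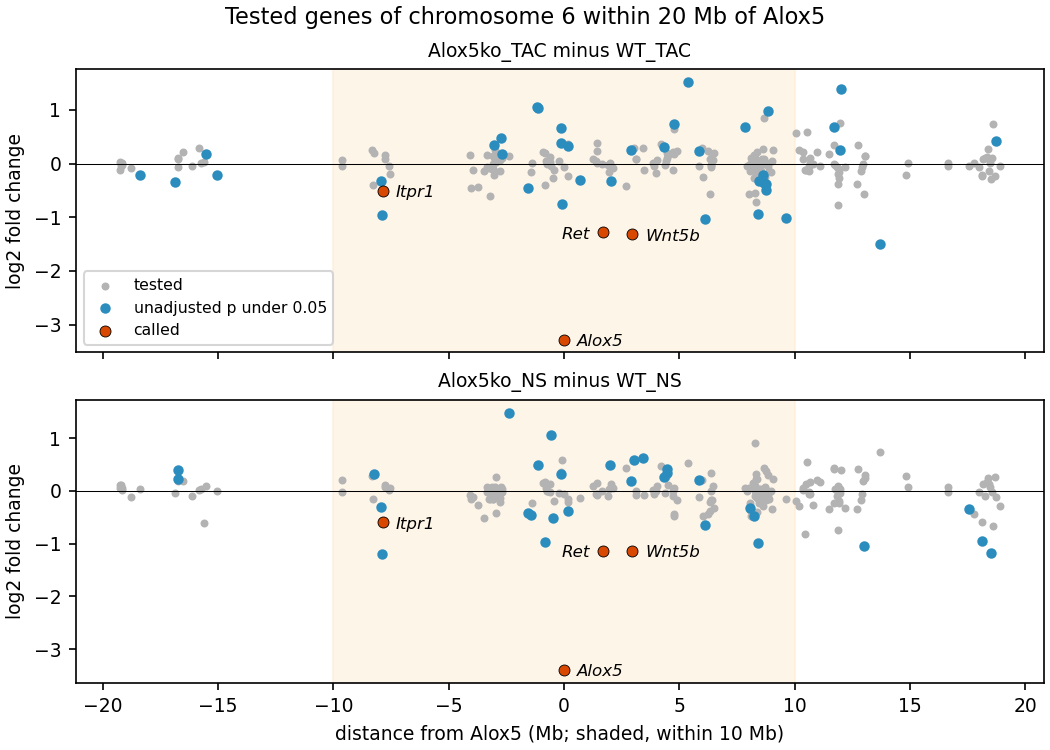
Log2 fold change of each tested gene of chromosome 6 within 20 Mb of Alox5 (points) against its distance from Alox5 in Mb, with TAC (top) and without (bottom). Ret, Wnt5b and Itpr1 lie near the same negative values in both panels, and within the shaded 10 Mb on each side 32 of 168 genes have an unadjusted p under 0.05 with TAC.

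The 2 genotype comparisons share no library, so the libraries without TAC show which differences also occur in hearts of the same genotypes without TAC. In Alox5ko_NS against WT_NS 6 genes were called (0.0397%), 2 higher (0.0132%) and 4 lower (0.0265%). An unadjusted p under 0.05 was reached by 964 genes (6.38%), of which 378 were higher (2.5%) and 586 lower (3.88%). Of these, 5 were also called under TAC in the same direction (83.3% of the 6 and 31.2% of the 16), namely Alox5, Wnt5b, Ret, Itpr1 and Ide. Without TAC, Wnt5b fell by 1.13, Ret by 1.14 and Itpr1 by 0.60. The sixth was Nnt. Over all genes, 56.1% had the same sign in both comparisons, against 62.7% of the 1291 with an unadjusted p under 0.05 under TAC. Across genes, which are not independent replicates, the Pearson correlation of the 2 sets of fold changes was 0.187.

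Ide, the enzyme that degrades insulin (chromosome 19, 37268743 to 37337852), was at 23.2, 23.3 and 27.5 CPM in WT_TAC and 35.1, 45.9 and 49.1 CPM in Alox5ko_TAC. It rose by 0.81 under TAC (SE 0.13, adjusted p = 0.00976) and by 0.86 without TAC (adjusted p = 0.0138). No other of 20 tested genes of insulin signalling was called, and their median was 0.02. Nnt, the transhydrogenase that makes NADPH in mitochondria, was at 148, 170 and 152 CPM in WT_TAC and 221, 238 and 222 CPM in Alox5ko_TAC. These groups did not overlap, but its value of 0.54 just missed the threshold (SE 0.10, adjusted p = 0.0506). Without TAC Nnt rose by 0.86 (adjusted p = 0.00084), from 166, 156 and 172 CPM to 313, 345 and 240 CPM. Among 34 antioxidant and mitochondrial NADPH genes no other was called by edgeR or DESeq2. An unadjusted p under 0.05 was reached by 6 of the 34, where 8.54% of all genes reached it. Glrx, a glutaredoxin, had -0.55, the stress-response factor gene Nfe2l2 0.25, and Cat, catalase, 0.20.

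**Figure D3:**
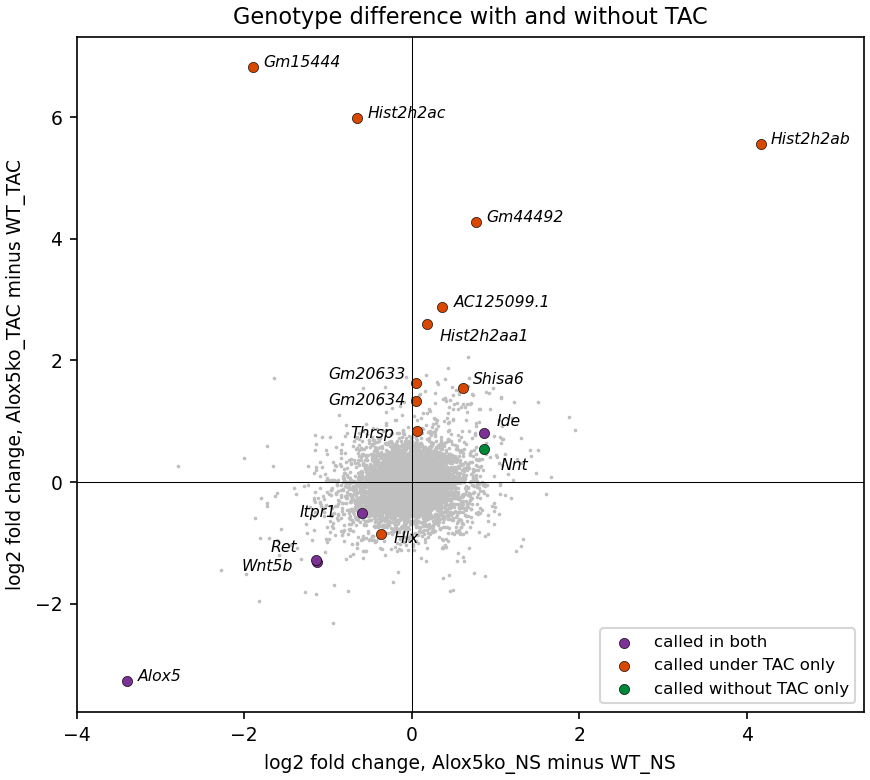
Log2 fold change between genotypes under TAC (vertical) and without TAC (horizontal) for all 15117 genes, with called genes named. Alox5, Wnt5b, Ret, Itpr1 and Ide were called in both; the horizontal positions of Hist2h2ab, Hist2h2ac, Gm15444 and Gm44492 rest on 5 counts or fewer per library and depend on the prior count.

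Thrsp, Shisa6 and Hlx were called under TAC alone. Thrsp codes for a nuclear protein that promotes fatty acid synthesis and answers to thyroid hormone. It was at 14.2, 12.8 and 11.7 CPM in WT_TAC and 25.4, 23.8 and 19.8 CPM in Alox5ko_TAC, and rose by 0.83 (SE 0.13, adjusted p = 0.00976). In WT_NS it was at 21, 20.1 and 19 CPM and in Alox5ko_NS at 20.8, 16.8 and 25.3 CPM, so the WT_TAC libraries lay below all the others. The genotype difference with TAC minus that without was 0.77 (SE 0.19) and did not pass (adjusted p = 0.543). Of 26 lipogenesis genes, all tested, Thrsp was called alone and the median was 0.09. Scd2, a fatty acid desaturase, went the other way, from 7.32, 6.59 and 7.13 CPM to 4.28, 5.02 and 4.73 CPM (-0.59, adjusted p = 0.168). The thyroid hormone receptor genes Thra and Thrb had values of -0.23 and -0.43.

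Shisa6, which codes for a protein that binds glutamate receptors, was a gene of low level. It was at 0.610, 0.471 and 0.516 CPM in WT_TAC and 1.36, 1.87 and 1.48 CPM in Alox5ko_TAC, a rise of 1.55 (SE 0.28, adjusted p = 0.0299). Without TAC it had a value of 0.61 that did not pass (adjusted p = 0.728). Its call was lost without WT_TAC 2, WT_TAC 3, Alox5ko_TAC 2 or Alox5ko_TAC 3.

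**Figure D4:**
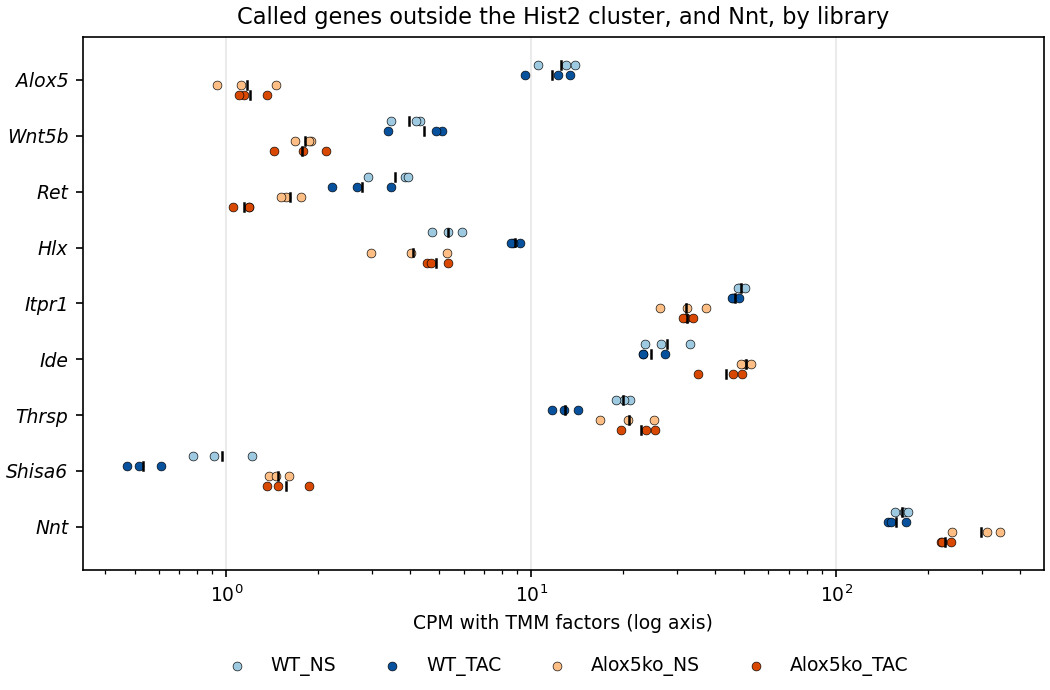
Level of the 8 called genes outside the Hist2 cluster, and of Nnt, in each of the 12 libraries (points; bar, group mean) as CPM on a log axis. Alox5, Wnt5b, Ret and Itpr1 are lower in both knockout groups, Ide and Nnt are higher in both, and Hlx and Thrsp set WT_TAC apart from the other groups.

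Hlx, a homeobox factor expressed in vessels and mesenchyme, was at 9.20, 8.69 and 8.59 CPM in WT_TAC and at 4.53, 4.70 and 5.35 CPM in Alox5ko_TAC. WT_NS, at 5.91, 5.32 and 4.71 CPM, lay near Alox5ko_TAC. Hlx fell by 0.86 (SE 0.16, adjusted p = 0.0449). It was the 1 call among 33 tested transcription factors of endothelial cells, which set the identity of arterial, venous and lymphatic vessels. The median of the 33 was -0.35, 2 were positive where 48.4% of all genes were, and 17 had an unadjusted p under 0.05, all of them lower (4.93% of all genes were lower at that p). In 11 the groups did not overlap with Alox5ko_TAC lower, where 6.58% of all genes did that. Without TAC the median of the 33 was -0.17 and 6 were positive. The list was drawn up with earlier results of these data known, Hlx among them.

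Mecom, a zinc finger factor of arterial endothelium, was at 9.95, 12 and 11.3 CPM in WT_TAC and 7.33, 8.49 and 7.64 CPM in Alox5ko_TAC (-0.50, adjusted p = 0.207). Hhex, a homeobox factor of vein and lymphatic development, was at 3.89, 3.90 and 3.71 CPM and 1.52, 1.55 and 2.96 CPM (-0.94, adjusted p = 0.229). Klf2, which is switched on by flow, was at 20.5, 25.9 and 28.1 CPM and 15.1, 17.1 and 17.3 CPM (-0.59, adjusted p = 0.292). Tcf15 was at 11.3, 11.4 and 11.7 CPM and 5.68, 4.52 and 7.88 CPM, with a value of -0.93 (adjusted p = 0.337). None of these 4 passed edgeR's test although the groups were apart; DESeq2 called Tcf15. The summed level of the list was 902.3, 852.5 and 870.7 CPM in WT_TAC and 706.6, 795.2 and 774.8 CPM in Alox5ko_TAC. The median stayed between -0.40 and -0.26 with each library left out in turn.

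Of the general endothelial markers none was called. The 15 markers, none of them at 0, summed to 1381, 1113 and 1122 CPM in WT_TAC and 1127, 1244 and 1224 CPM in Alox5ko_TAC, with a median of 0.01 and 8 positive. Kdr, the main receptor for vascular endothelial growth factor, was at 157, 147 and 145 CPM and at 103, 133 and 138 CPM (-0.27, adjusted p = 0.573). Aqp1, the water channel of microvessels, had 0.32 (adjusted p = 0.436). Markers of smooth muscle and pericytes had mostly negative values as well: of 14, none at 0, 1 was positive. At an unadjusted p under 0.05, 5 were lower, where 4.93% of all genes were. None was called, and the median was -0.20 (-0.32 without WT_TAC 3). The 14 markers summed to 4442, 3784 and 3685 CPM in WT_TAC and 4100, 3258 and 3946 CPM in Alox5ko_TAC. Their part in the values of the transcription factors was not tested. Without TAC their median was -0.33 with 2 positive, and that of the 15 endothelial markers was -0.17 with 3 positive. In whole ventricle, fewer cells of a type and less RNA per cell cannot be told apart. Genes of other roles with similar values were Aplnr, the apelin receptor, at 10.1, 10.3 and 11.1 CPM against 6.06, 3.19 and 7.88 CPM (-0.88, adjusted p = 0.293), and Sox4 at -0.93 (adjusted p = 0.33).

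Wnt signalling passes from ligands through Frizzled receptors to beta-catenin, and Axin2 is both its target and its brake. Of 69 genes 41 were tested, Wnt5b was the 1 called, 8 were positive, and the median was -0.20. Axin2 was at 2.86, 4.45 and 3.28 CPM in WT_TAC and 1.70, 2.46 and 2.24 CPM in Alox5ko_TAC (-0.73, adjusted p = 0.314). Dact1, which binds Dishevelled, had -0.74 and the receptor gene Fzd5 -0.49, with adjusted p = 0.349 and 0.566. The median was -0.10 without WT_TAC 1 and -0.12 without Alox5ko_TAC 1. Of 6 tested genes of the GDNF family and its receptors Ret was called alone. Gfra1, a co-receptor of Ret, had -0.52 (adjusted p = 0.57). Gdf15, a stress-induced hormone that signals through Ret in the hindbrain, was at 0.845, 0.556 and 0.469 CPM and 1.1, 2.74 and 2.44 CPM (1.73, adjusted p = 0.273).

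Chaperone genes had mostly positive values, and edgeR called none of them. The 38 tested genes of the endoplasmic reticulum, where secreted proteins are folded, had a median of 0.12, and 32 were positive. At an unadjusted p under 0.05, 13 were higher and none was lower (3.61% of all genes were higher at that p), and edgeR and DESeq2 each called 0. Hsp90b1 was at 874.5, 1004 and 980.7 CPM in WT_TAC and 1112, 1214 and 1199 CPM in Alox5ko_TAC (0.30, adjusted p = 0.273). Hspa5, the central chaperone BiP, was at 367, 437 and 426 CPM and 499, 516 and 494 CPM (0.29, adjusted p = 0.31). Manf, a secreted stress protein, was at 38.5, 46.6 and 50.1 CPM and 61.5, 62.3 and 62.9 CPM (0.47, adjusted p = 0.316). In all 3 the knockout libraries lay above every wild-type one, as in 15 of the 38 (5.77% of all genes; 12.4% did not overlap in either direction). Chac1, a target of the stress factor ATF4, had 1.87 but overlapping groups. Without TAC the median of the list was -0.11, and in Hsp90b1 the value was -0.18. The summed level under TAC was 3649, 3862 and 3822 CPM in WT_TAC and 4118, 4419 and 4274 CPM in Alox5ko_TAC.

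The 42 heat shock genes of the cytosol and mitochondria had a median of 0.18 with 37 positive. Of them 14 were higher and none lower at an unadjusted p under 0.05 (3.61% and 4.93% of all genes). Among these 42 edgeR called 0 and DESeq2 called Hsph1. Hsph1, a nucleotide exchange factor for Hsp70, was at 75.4, 101 and 94.5 CPM in WT_TAC and 159, 122 and 172 CPM in Alox5ko_TAC (0.75, adjusted p = 0.261). Hspa8, the constitutive Hsp70, was at 1600, 1654 and 1730 CPM and 2175, 1924 and 2317 CPM (0.36, adjusted p = 0.314). Hspb8, a small heat shock protein of muscle, had 0.34, and the Hsp90 activator gene Ahsa1 had 0.26. Without TAC the median was 0.04. The sums were 10940, 11540 and 11570 CPM and 13280, 12020 and 13520 CPM, again without overlap.

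**Figure D5:**
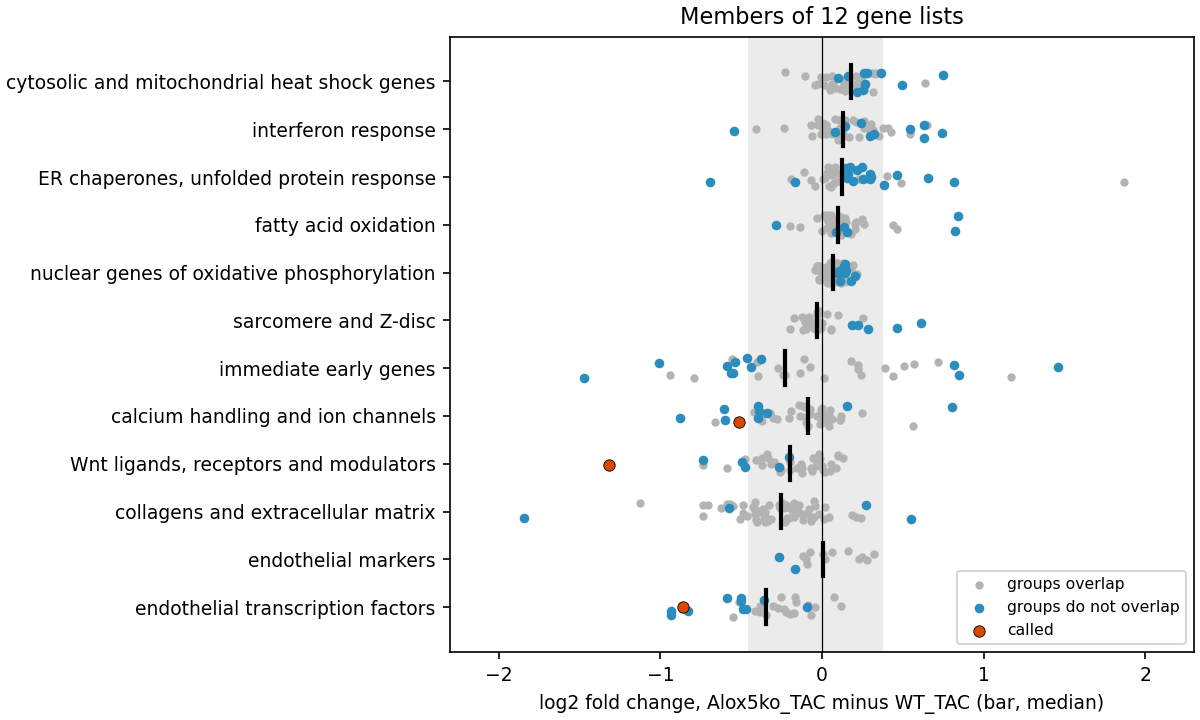
Log2 fold change of Alox5ko_TAC against WT_TAC for each tested member of 12 gene lists (points, coloured by whether the groups overlap or the gene was called; bar, list median), with the 5th to 95th percentile of all genes in grey. Medians run from -0.35 for endothelial transcription factors to 0.18 for heat shock genes, and 3 members of these lists were called.

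Genes of the fetal and hypertrophic program, which a raised load switches on, spread widely within Alox5ko_TAC. Of 27 tested none was called by edgeR or DESeq2, and 17 were positive. At an unadjusted p under 0.05, 2 were higher and 2 lower (3.61% and 4.93% of all genes). Nppa, the atrial natriuretic peptide, was at 1243, 753.4 and 622.2 CPM in WT_TAC and 839.4, 277.8 and 1237 CPM in Alox5ko_TAC (-0.15, adjusted p = 0.961). Acta1, the skeletal actin, was at 957.5, 911.4 and 493.3 CPM in WT_TAC and 1666, 277.1 and 1159 CPM in Alox5ko_TAC (0.39, adjusted p = 0.918). Alox5ko_TAC 2 was the lowest of the 6 TAC libraries for both and lay near the libraries without TAC, which reached 272.5 CPM for Nppa and 312.5 CPM for Acta1. The median of the list was 0.21, and it ran from -0.04 without Alox5ko_TAC 1 to 0.39 without Alox5ko_TAC 2. It was 0.34, 0.03 and 0.04 without WT_TAC 1, 2 and 3 and 0.05 without Alox5ko_TAC 3.

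Genes of calcium handling and ion channels shape the action potential and contraction of myocytes. Of 47 tested, Itpr1 was the 1 called, and 11 were lower and 2 higher at an unadjusted p under 0.05 (4.93% and 3.61% of all genes). The median was -0.09, and it was -0.04 without WT_TAC 3 and -0.13 without Alox5ko_TAC 3. Camk2b, a calcium- and calmodulin-dependent kinase, was at 14.1, 11.4 and 14.7 CPM in WT_TAC and 9.36, 8.90 and 8.16 CPM in Alox5ko_TAC (-0.60, adjusted p = 0.098), and DESeq2 called it. The WT_NS libraries had 5.96, 7.56 and 7.95 CPM of Camk2b, and the Alox5ko_NS libraries 8.89, 7.76 and 9.35 CPM. Kcnh2, a channel of repolarisation, was at 28.3, 30.9 and 30.7 CPM and 22.2, 23.9 and 22.2 CPM (-0.40, adjusted p = 0.273). Kcnj5, a subunit of the acetylcholine-gated potassium channel, was at 54.3, 59.2 and 72.9 CPM and 40.5, 49.1 and 51.9 CPM (-0.40, adjusted p = 0.273).

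Sarcomere and Z-disc genes had a median of -0.03 over 32 genes and none called by edgeR. At an unadjusted p under 0.05 there were 5, all higher, where 3.61% of all genes were higher. Fbxo32, the ubiquitin ligase atrogin-1, was at 102, 100 and 126 CPM in WT_TAC and 162, 148 and 142 CPM in Alox5ko_TAC (0.46, adjusted p = 0.0987). Myot, myotilin, was at 46.0, 49.0 and 38.0 CPM and 80.0, 52.6 and 70.6 CPM (0.61, adjusted p = 0.261). DESeq2 called both of these. Lmod2, leiomodin, was at 1534, 1493 and 1622 CPM and 1908, 1833 and 1932 CPM (0.29, adjusted p = 0.349). Trim63, the ligase MuRF1, had 0.25. Klf15, a factor that restrains hypertrophy and drives metabolic genes, had the next smallest p after Nnt and was named after its value was seen. It was at 18.1, 15 and 19.5 CPM in WT_TAC and 29.8, 24.9 and 26.1 CPM in Alox5ko_TAC (0.62, adjusted p = 0.0554), and without TAC its value was 0.48.

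Among 38 genes of fatty acid oxidation, the main fuel path of the heart, none was called by edgeR or DESeq2. The median was 0.10 with TAC and 0.14 without, 34 were positive under TAC (48.4% of all genes were), and 8 were higher and 1 lower at an unadjusted p under 0.05 (3.61% and 4.93% of all genes). Without WT_TAC 1 the median under TAC was 0.06. Ucp3, an uncoupling protein, was at 19.9, 20.4 and 17.3 CPM in WT_TAC and 41.5, 29.8 and 30.4 CPM in Alox5ko_TAC (0.82, adjusted p = 0.365). Cpt2 and Acads, enzymes of the oxidation of long and short chains, had 0.26 and 0.24, and the thioesterase gene Acot1 had 0.47. Of 75 nuclear genes of oxidative phosphorylation 65 were positive, with a median of 0.07 and none called by either tool. Ndufa10, at 0.20, was the 1 with an unadjusted p under 0.05, which 8.54% of all genes had. Mitochondrially encoded genes had a median of -0.01.

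Collagens and other matrix genes had a median of -0.26 over 69 tested genes with 8 positive and none called by edgeR. At an unadjusted p under 0.05, 8 were lower and 2 higher (4.93% and 3.61% of all genes). Under TAC the median of the list rested on WT_TAC 1, where the list summed to 6831 CPM. The sums were 3898 and 4502 CPM in the other WT_TAC libraries and 4740, 3882 and 4546 CPM in Alox5ko_TAC, and the median was 0.04 without WT_TAC 1 and -0.44 without WT_TAC 2. WT_TAC 1 also had the highest sum of activated fibroblast markers, 499 CPM. It was 203.8 and 239.5 CPM in WT_TAC 2 and 3 and 135.7 to 320.8 CPM in Alox5ko_TAC. Without TAC the median of these markers was -0.54, and none of the 11 tested was positive. The matrix list had a median of -0.42 without TAC, and 4 of its 69 genes were positive. Its sum was lower in every Alox5ko_NS library (2893 to 3551 CPM) than in any WT_NS library (4433 to 4856 CPM). Fn1, fibronectin, was at 102, 81.7 and 63.3 CPM in WT_TAC and 49.8, 52.1 and 66.4 CPM in Alox5ko_TAC (-0.55, adjusted p = 0.347). Mmp14, a membrane-bound collagenase, had -0.57 (adjusted p = 0.311). P4ha1 and Plod1, which hydroxylate collagen inside the cell, went the other way at 0.55 and 0.27 (adjusted p = 0.243 and 0.284). P4ha1 was at 33.4, 34.2 and 33.5 CPM in WT_TAC and 45.9, 46.5 and 55.4 CPM in Alox5ko_TAC, and DESeq2 called it.

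Macrophages make leukotrienes, and 12 of their 16 markers had positive values. At an unadjusted p under 0.05, 3 were higher and 1 lower (3.61% and 4.93% of all genes). The 16 markers, none at 0, summed to 207.0, 156.3 and 147.4 CPM in WT_TAC and 180.5, 229.2 and 202.9 CPM in Alox5ko_TAC, with a median of 0.15 and none called by edgeR. The median was 0.31, 0.09 and 0.04 without WT_TAC 1, 2 and 3, and 0.23 without Alox5ko_TAC 1. Cd163 and Lyve1, of resident macrophages, had 0.69 and 0.48, and Lyz2 had 0.43. Cx3cr1, the fractalkine receptor, was at 7.65, 7.83 and 5.63 CPM and 4.24, 4.20 and 5.54 CPM (-0.60, adjusted p = 0.461). Cd163, which DESeq2 called, lies 7.843 Mb from Alox5 on chromosome 6. Interferon response genes had a median of 0.13 with 40 of 50 positive and none called by either tool (7 higher and 1 lower at an unadjusted p under 0.05, against 3.61% and 4.93% of all genes). The median was 0.22 without WT_TAC 1, 0.06 without WT_TAC 3 and 0.08 without Alox5ko_TAC 2. In the comparison without TAC it was -0.26. Ifit1 was at 1.50, 1.24 and 1.22 CPM in WT_TAC and 2.2, 1.96 and 1.96 CPM in Alox5ko_TAC (0.63, adjusted p = 0.336), Usp18 had 0.74 and Ifi44 0.54.

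Immediate early genes, which answer within minutes to growth factors, stretch and handling, went both ways (median -0.23 over 35, none called by edgeR). At an unadjusted p under 0.05, 5 were higher and 8 lower (3.61% and 4.93% of all genes). Nab2, a repressor of EGR factors, was at 54.5, 26.7 and 49.5 CPM in WT_TAC and 20.1, 21.2 and 23.5 CPM in Alox5ko_TAC (-1.01, adjusted p = 0.284). Dusp1 and Ier3 had -0.54 and -0.56. The median was 0.03 without WT_TAC 2, and -0.13 without WT_TAC 1 or without Alox5ko_TAC 3. Clock genes gave a median of -0.03. Per2 was at 2.16, 1.63 and 1.13 CPM in WT_TAC and 3.60, 3.10 and 5.25 CPM in Alox5ko_TAC (1.28, adjusted p = 0.118), Nfil3 had 0.28, Cry1 0.30 and Per3 -0.56. DESeq2 called Nab2 and Per2 of these lists. Other lists without a call by edgeR or DESeq2 were chemokines and cytokines (median -0.16 over 30), TGF-beta and BMP signalling (-0.09 over 45), the cell cycle (-0.17 over 47) and glycolysis (0.04 over 26).

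The 10 highest and 10 lowest values among genes that were not called were taken from 230 with an unadjusted p under 0.01, groups apart and a mean log2 CPM of at least 1, leaving out predicted gene models. Gm9913 is such a model, with a value of -1.12 (adjusted p = 0.077). The higher ones not yet described include Kbtbd12, at 10.8, 14.2 and 14.8 CPM in WT_TAC and 33.3, 33.8 and 31.8 CPM in Alox5ko_TAC (1.31, adjusted p = 0.357). Without TAC Kbtbd12 spread from 16.1 to 55.4 CPM in Alox5ko_NS, above 12 to 14.1 CPM in WT_NS. Fam107a had 1.34, Btaf1, a regulator of TATA-binding protein, 1.21, Ddit4, an inhibitor of mTOR, 1.08, and Fah, of tyrosine breakdown, 0.89. Ahsg, a gene of liver, had 1.30. It was at 2.29, 2.33 and 6.59 CPM in Alox5ko_TAC, highest in the library with the most liver transcripts, whose part in this value was not tested. The lower ones were Akap5 at -1.21, Rhox5 at -0.97, the glycosyltransferase gene Mgat3 at -0.91, the ceramide synthase gene Cers6 at -0.91 and Sv2a, next to the Hist2 cluster, at -0.85, besides Nab2, Hhex, Tcf15, Sox4 and Aplnr above. Akap5, an anchor for protein kinase A, was at 13.8, 12.4 and 17.9 CPM in WT_TAC and 6.44, 5.34 and 7.31 CPM in Alox5ko_TAC (adjusted p = 0.308).

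Whether the genotype difference itself changed with TAC was tested as an interaction. No gene passed in edgeR's quasi-likelihood test (smallest adjusted p = 0.511), 813 had an unadjusted p under 0.05 (5.38%; 2.62% positive and 2.76% negative), and DESeq2 called 1. A difference called with TAC and not without, as for Thrsp, Shisa6, Hlx and the Hist2 genes, is not shown to depend on TAC.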

How the data were processed

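RNA of mouse left ventricle was read as polyadenylated, directional, paired-end libraries, per the labels' protocols. The authors deposited 2 tables per gene for all 12 libraries, 1 of raw read counts and 1 of RPKM. The submitters' processing notes name HISAT2, DESeq2 and the builds mm10 and GRCh38; the counting program, annotation release and strand setting are not given in the sources used here. The deposited RPKM equalled counts per length and library total within 0.1% in 336816 of 336816 values. Positions are from GENCODE M21 (GRCm38), where 47209 of 49492 rows matched by symbol and chromosome, and 91.01% of these had the same start and end.

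The counts of genes with 10 or more in at least 3 of the 6 TAC libraries were fitted in edgeR 4.0.16 (R 4.3.3, limma 3.58.1) with TMM scaling, 1 coefficient per group over all 12 libraries, and tested with its robust quasi-likelihood F statistic. The Benjamini-Hochberg adjustment ran over all 15117 genes, and genes under 0.05 are "called". Fold changes are log2, Alox5ko_TAC minus WT_TAC. CPM of single genes use the TMM factors, and sums over lists use library totals. Lists are described by counts and medians, without a set test. Genes named are drawn from Alox5 and Runx2, every called gene, the 10 highest and 10 lowest other values by the rule given with them, up to 4 members of each list by smallest p, genes called without TAC, and genes within 10 Mb of Alox5 with an unadjusted p under 0.05; others are said to be chosen after their values were seen. The members and lists were chosen with earlier results of these data known. Hist2h2aa2, Hist2h2be, Alox5ap and Ltc4s are named besides, a choice made with their values in view. Not every gene that the rule admits is named in the text, and 1 is not reported here. The labels do not say whether the libraries came from separate animals, so p-values measure the spread between these libraries, which may be technical. Other scalings, filters, sample sets, DESeq2 1.42.0 and leaving out each library were tried. The test was checked on simulated data.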

Additional observations from a re-analysis of the deposited data

How the results depend on the processing

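With RLE scaling 16 genes were called under TAC, 15 of them shared with the main result, with library totals alone 14, and with edgeR's own filter 17. The replicate block gave 21 genes under TAC, 6 without TAC and 0 for the interaction. Deviations of same-numbered libraries correlated at 0.113, -0.00857 and 0.0507 under TAC and at 0.0495, -0.000933 and -0.0864 without. Differently numbered pairs under TAC ran from -0.161 to 0.103. These few small values cannot show whether the numbers pair the libraries. Without a filter on low counts 252 genes were called under TAC, 116 without TAC and 83 for the interaction. With only the 6 libraries of each comparison the counts were 39 and 11, and with DESeq2 they were 59, 24 and 1; the cause was not tested. Without the 7 gene models that overlap Hist2 genes, chosen after seeing the data, 9 genes were called under TAC, since 5 of the 16 called rows were among the models left out; Hlx and Itpr1 also lost their calls. Leaving out 1 library in turn gave 10 to 29 genes under TAC, 2 to 7 without TAC and 0 to 1 for the interaction. Alox5, the 3 called H2A genes and the models AC125099.1, Gm20633 and Gm15444 were called in all 6 of these fits under TAC, although Hist2h2ab, Hist2h2ac and Gm15444 passed the count minimum only through Alox5ko_TAC, and Wnt5b in 5, with an adjusted p = 0.0501 in edgeR without Alox5ko_TAC 3. Ide and Thrsp were called in 3 and Ret, Shisa6 and Gm20634 in 2. Hlx and Itpr1 were called in none, and lost their calls with library totals and with the block as well, Itpr1 also with RLE scaling. Shisa6 lost its call with only the 6 libraries. Values that changed sign were those of Nppa, 0.19 without WT_TAC 1 and 0.25 without Alox5ko_TAC 2, and of Acta1, -0.133 without Alox5ko_TAC 1; over all libraries left out they ran from -0.644 to 0.25 and from -0.133 to 0.843. With each library left out in turn, medians of other lists ran from -0.0211 to 0.0667 (leukotriene genes), -0.135 to 0.304 (Runx), 0.0136 to 0.133 (histones), 0.0362 to 0.0919 (lipogenesis), -0.0176 to 0.0588 (insulin), 0.0118 to 0.0798 (antioxidant), 0.031 to 0.109 (oxidative phosphorylation), -0.0908 to 0.049 (mitochondrially encoded), -0.0806 to 0.0531 (sarcomere), -0.0535 to 0.0165 (clock), -0.215 to -0.0469 (chemokines), -0.126 to -0.0215 (TGF-beta and BMP), -0.338 to -0.0541 (cell cycle), -0.0113 to 0.0739 (glycolysis) and -0.0492 to 0.133 (endothelial markers). Runx2 was under the count minimum and was not tested.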
